A study of Mus musculus with 30 samples.

Results

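Hyaluronan is a long, unsulfated sugar chain that cells extrude into the matrix, and the 7 genes described here make it, bind it or stand beside it in injured tissue. They are the hyaluronan synthase genes *Has1* and *Has2*, the hyaluronan receptor gene *Cd44*, *Tnfaip6*, whose secreted product TSG-6 moves the heavy chains of inter-alpha-inhibitor onto hyaluronan, the syndecan genes *Sdc1* and *Sdc4*, which encode membrane proteoglycans with heparan sulfate chains, and *Tnc*, which encodes the matrix glycoprotein tenascin C. They were taken by gene symbol, 7 of the 28586 genes listed in any of the count tables. The rule that names them uses no threshold on a measured value, but earlier results of these data were known when they were chosen. *Cd44* is also a gene that the study itself displayed, and *Tnfaip6* is on the acute enteric gliosis list that the study drew from these same libraries, so neither is an independent pick.

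HAS enzymes sit in the plasma membrane and join UDP-glucuronic acid and UDP-N-acetylglucosamine into the chain, while hyaluronidases and the cell surface hyaluronidase CEMIP2 cut it. CD44 binds hyaluronan outside the cell and is tied to the actin cortex by ezrin, radixin and moesin. Syndecans hold growth factors and chemokines on their sugar chains, and tenascin C is scarce in most resting adult tissue and is laid down again after injury. In the gut wall, hyaluronan and its partners are known from studies of inflammation and of leukocyte adhesion.

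The libraries came from the small bowel *muscularis externa* (*ME*), the muscle coat that holds the myenteric ganglia, of naïve mice and of mice that underwent intestinal manipulation (IM), the surgical model of post-operative ileus, and were killed hours later, with the number of hours in the name of the group (IM3h, IM24h and IM72h). *RiboTag* RNA was precipitated with HA-tagged ribosomes, and by the labels all of these mice carried B6 Tg(Sox10-icre/ERT2)388Wdr/J, a tamoxifen-dependent Cre driven from *Sox10* in glia, together with the floxed tag allele B6N.129 Rpl22tm1.1Psam/J. Total *ME* RNA carried the same tag allele, but at IM3h and in naïve mice the labelled driver was B6.Cg-Tg73.12Mvs/J(Gfap-cre), a Cre driven from *Gfap*, and in the IM24h and IM72h groups it was B6 Tg(Sox10-icre/ERT2)388Wdr/J. In total *ME* RNA the mouse line and the 2 later time points therefore cannot be told apart. The study's methods give adult male mice. The tables held 29 libraries, 3 naïve and 4 at each time point for *RiboTag* RNA, and 3, 3, 4 and 4 for total *ME* RNA at naïve, IM3h, IM24h and IM72h. The study gives its numbers per group as mice, and the tables do not tie a library to a mouse.

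Total counts ranged from 6603170 to 12866062 per library in total *ME* RNA and from 3010306 to 7899493 in *RiboTag* RNA. Entries overlapping rRNA took up 4.77% to 16.0% of counts in naïve *RiboTag* libraries, 26.9% to 65.5% at IM24h and 64.8% to 84.7% at IM72h. In total *ME* RNA they went the other way, with 23.0% to 42.6% in naïve libraries, 33.7% to 34.6% in those of IM3h, 7.84% to 16.2% in those of IM24h and 3.03% to 4.70% in those of IM72h, and their part in the later changes of the members was not tested beyond the fit without these entries. *Sox10*, the gene that drives the Cre, had 3826 to 9191 counts in naïve *RiboTag* libraries, 2384 to 5206 at IM3h, and 0 to 25 at IM72h. At IM24h it had 3336 and 1366 counts in libraries 1 and 4, but 93 and 121 in libraries 2 and 3. The 8 glial markers summed to 1584 to 1924 CPM (counts scaled to library size) in naïve *RiboTag* libraries against 125 to 150 CPM in naïve *ME* libraries, to 966, 798, 895 and 951 CPM in *RiboTag* libraries 1 to 4 of IM24h, and to 161 to 1462 CPM in those of IM72h. The *RiboTag* libraries of IM72h and libraries 2 and 3 of IM24h thus stood apart in *Sox10*, the defining glial gene, while by the sum of the 8 markers libraries 2 and 3 of IM24h lay near libraries 1 and 4. Results at these time points are given with that in view.

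The stretches before the RefSeq start sites of 3 of the genes are shown because these genes rose together at IM3h and each stretch holds a motif of an inducible factor. Capitals mark the motif, bases run 5′ to 3′ on the strand of the gene, build GRCm38.p6, and bases inside exons of GENCODE are left out.
Has1 (chr17:17855206-17855438, minus strand): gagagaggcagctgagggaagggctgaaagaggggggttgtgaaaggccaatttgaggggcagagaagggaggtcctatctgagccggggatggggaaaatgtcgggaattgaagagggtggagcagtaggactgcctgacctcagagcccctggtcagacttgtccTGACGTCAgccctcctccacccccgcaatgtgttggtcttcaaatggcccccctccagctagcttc
Tnfaip6 (chr2:52037863-52038008, plus strand): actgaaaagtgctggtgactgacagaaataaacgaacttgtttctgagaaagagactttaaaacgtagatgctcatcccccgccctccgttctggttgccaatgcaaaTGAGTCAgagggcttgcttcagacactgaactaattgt
Sdc4 (chr2:164443189-164443438, minus strand): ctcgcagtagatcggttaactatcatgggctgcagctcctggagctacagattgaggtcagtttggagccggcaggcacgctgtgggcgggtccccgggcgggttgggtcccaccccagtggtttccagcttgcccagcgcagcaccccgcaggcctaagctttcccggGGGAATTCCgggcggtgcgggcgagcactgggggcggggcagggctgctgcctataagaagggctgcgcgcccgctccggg
The motifs searched on both strands of the 250 bases before each start were the cyclic AMP response element TGACGTCA, the AP-1 element TGANTCA and the NF-kB element GGGANTTCC, which share no match here. They were chosen with these sequences already seen. *Has1* holds the cyclic AMP response element 83 to 76 bases before its start, *Tnfaip6* the AP-1 element 142 to 136 bases before, and *Sdc4* the NF-kB element 81 to 73 bases before. Among 32851 RefSeq promoters of this length, 1.55% hold TGACGTCA, 6.75% hold TGANTCA and 1.43% hold GGGANTTCC. The windows of *Cd44*, *Sdc1* and *Tnc* hold none of the 3. A match describes letters only, and no binding was measured. RefSeq entries matched 6 of the 7 genes, without *Has2*.

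At IM3h the genes rose together in both fractions. In total *ME* RNA 6 of the 6 members tested were higher than in naïve mice, against 19.3% of all 15333 genes tested (13.4% were lower), and *Has2* had too few counts to be tested. With 1 library left out 5 to 6 members were called there. In *RiboTag* RNA 6 of 7 were higher, against 8.86% of 16053 genes (4.44% were lower), and the exception was *Sdc1*. The median log2 fold change of the members was 2.69 in total *ME* RNA and 3.39 in *RiboTag* RNA, beside medians of 0.00071 and -0.041 over all genes tested. A call means a Benjamini-Hochberg adjusted p under 0.05 from edgeR's quasi-likelihood test, and log2 fold changes are given with their SE. When all 4 *RiboTag* groups shared 1 estimate of the spread, only *Sdc4* was called at IM3h, against 0.123% of genes higher and 0.067% lower. In that fit 4 members were called once IM72h was left out, against 1.94% and 0.422% of genes, and 6 once libraries 2 and 3 of IM24h were also left out, against 6.61% and 2.6%. Scaling by library totals alone, scaling by the reference genes *Actb*, *Hsp90ab1* and *Rplp1*, and leaving out 1 library each left at least 5 members called at *RiboTag* IM3h. Of all genes 6.08% were higher and 5.8% lower with library totals, and 1.49% and 1.87% with the reference genes.

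**Figure D1:**
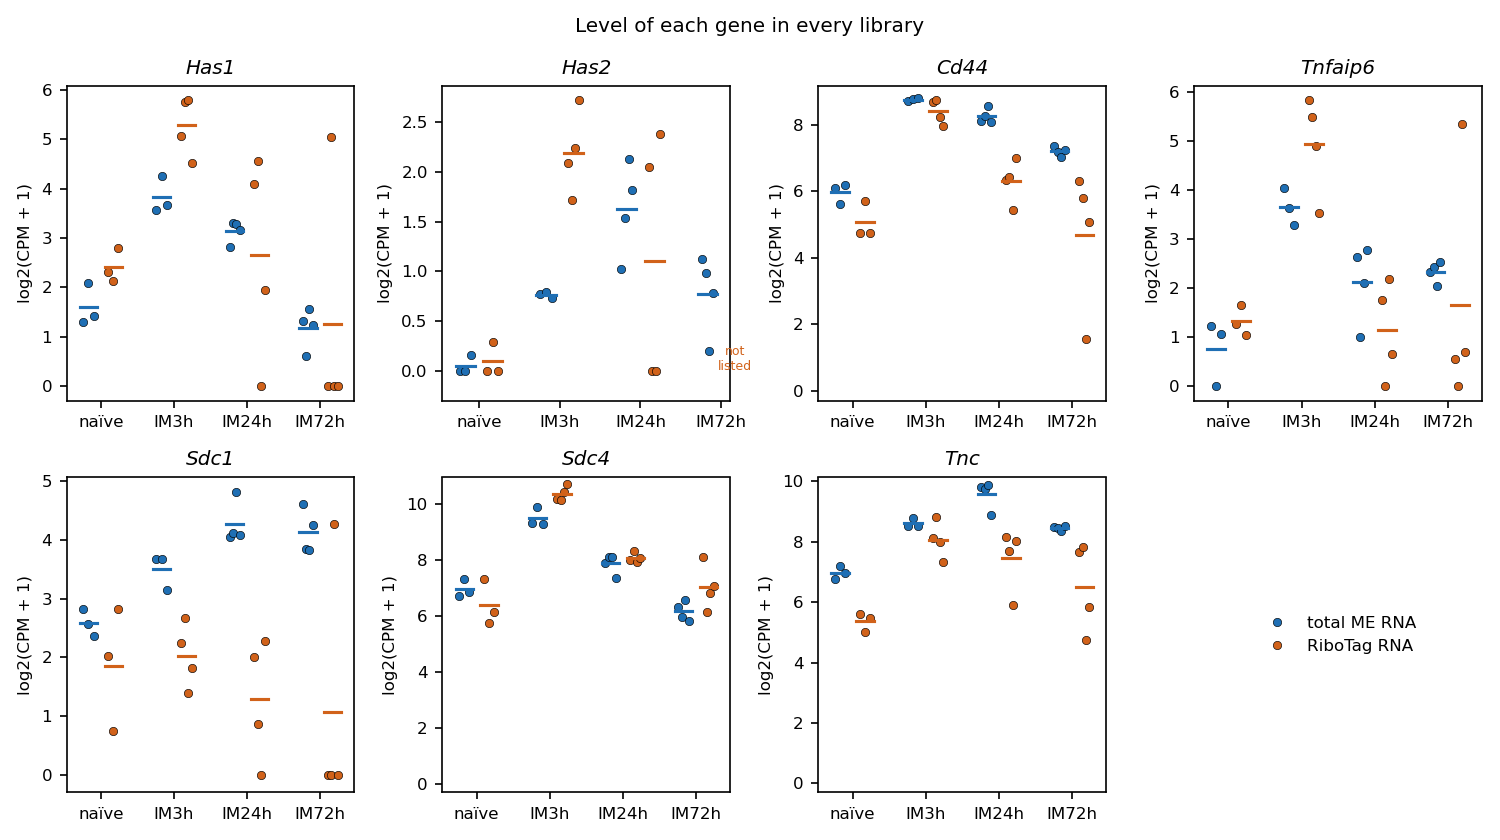
Level of the 7 genes in every library, as log2(CPM + 1) on the vertical axis and time point on the horizontal axis, with total *ME* RNA in blue and *RiboTag* RNA in orange. Each point is 1 library and each bar is the mean of the points. Every library at IM3h lies above every naïve library for each gene except *Sdc1* in *RiboTag* RNA, and the *RiboTag* points spread widely at IM72h. The share of all genes that separate in this way was not counted.

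*Has1*, whose enzyme makes hyaluronan, lies on chromosome 17 from 17843323 to 17855205 (mm10, GENCODE). In total *ME* RNA it had 1.45, 3.23 and 1.69 CPM in the naïve libraries, 10.8, 18.2 and 11.8 CPM in those of IM3h, 6.03, 8.91, 8.74 and 7.92 CPM in those of IM24h, and 1.51, 0.527, 1.96 and 1.37 CPM in those of IM72h. The IM3h and IM24h libraries all lay above the naïve ones, and those of IM72h overlapped them. The log2 fold change against naïve mice was 2.79 ± 0.36 at IM3h (adjusted p = 0.000271) and 1.93 ± 0.42 at IM24h (adjusted p = 0.00698). At IM72h it was -0.63 ± 0.48 (adjusted p = 0.278). Scaling by the reference genes made it -1.23 (adjusted p = 0.0435), but moved the median of all genes to -0.62, with 11.3% of genes higher and 48.3% lower, and relative to that median it was -0.61. From IM24h to IM72h *Has1* fell by 2.58 on the log2 scale (adjusted p = 0.000604). In *RiboTag* RNA *Has1* had 3.94, 3.39 and 5.92 CPM in naïve libraries and 32.7, 53.3, 54.4 and 22.1 CPM at IM3h, again without overlap. Its log2 fold change there was 3.26 ± 0.44 (adjusted p = 0.000638). At IM24h the 4 *RiboTag* libraries had 16.1, 22.5, 0 and 2.87 CPM, a spread that includes values above and below all naïve libraries (log2 fold change 1.26 ± 1.46, adjusted p = 0.801). At IM72h library 2 had 32.1 CPM, from 73 counts, and the other 3 had 0. In library 2 the glial markers summed to 161 CPM, beside 1462, 955 and 1220 CPM in libraries 1, 3 and 4. The fitted log2 fold change of *Has1* was 0.81 ± 2.15 with library 2 and -7.48 without it, so its direction rested on this library.

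*Has2*, the other hyaluronan synthase gene of the set, lies on chromosome 15 from 56665627 to 56694539. It was at the floor in naïve mice of both fractions, with 0, 0 and 1 counts in total *ME* RNA and 0, 2 and 0 counts in *RiboTag* RNA. In total *ME* RNA it had 4 to 5 counts at IM3h, 11, 19, 37 and 22 counts at IM24h and 14, 13, 2 and 11 counts at IM72h. Set against a floor of 3 counts per naïve library, its mean level was at least 4.83-fold higher at IM24h, with an adjusted p of 0.00685, and at least 1.54-fold and 1.65-fold higher at IM3h and IM72h, where the filter on low counts left it out. Fits that kept it gave an adjusted p of 0.0904 with no filter and 0.036 with all groups in 1 fit at IM3h. At IM72h these were 0.0148 and 0.0119, the reference genes gave 0.037, and fits without 1 naïve library gave 0.0323 to 0.0693. In *RiboTag* RNA *Has2* had 42, 24, 32 and 60 counts at IM3h, at least 10.4-fold higher than the naïve floor (adjusted p = 0.0347). That call was lost when any of 5 of the 7 libraries was left out (highest adjusted p = 0.105), with library totals alone (adjusted p = 0.0511) and with the reference genes (adjusted p = 0.135). These scalings moved the median of all genes to -0.24 and -0.45. At IM24h the *RiboTag* counts were 25, 0, 0 and 22, with the zeros in libraries 2 and 3, and *Has2* is not listed at IM72h. The gene overlaps *Has2os* on the other strand, and the strand setting of the counting is not given in the sources used here, so reads of the pair could have been mixed. *Has2os* had 0 to 4 counts per library in total *ME* RNA, 0 to 29 in naïve *RiboTag* RNA and 0 to 63 at IM3h. *Cd44* overlaps *Gm23731* and *Tnc* overlaps *8030451A03Rik*, each on the other strand, so the same limit holds for them.

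*Tnfaip6*, on chromosome 2 from 52038009 to 52056686, had the largest fitted rise of the members tested at IM3h in total *ME* RNA. Its naïve libraries had 1.33, 0 and 1.09 CPM, and those of IM3h 15.4, 11.4 and 8.81 CPM (log2 fold change 3.74 ± 0.54, adjusted p = 0.000525). At IM24h it had 5.18, 1.001, 3.28 and 5.86 CPM, and library 2 lay within the naïve range (log2 fold change 2.13 ± 0.90, adjusted p = 0.103, and 0.0398 with DESeq2). At IM72h the 4 libraries had 3.09 to 4.81 CPM, all above the naïve ones (log2 fold change 2.13 ± 0.51, adjusted p = 0.00406). The step from IM3h to IM24h was -1.59 ± 0.51 (adjusted p = 0.0419), a call lost when any of 5 of the 7 libraries was left out. In *RiboTag* RNA *Tnfaip6* rose from 1.40, 2.14 and 1.07 CPM to 55.7, 43.6, 28.7 and 10.6 CPM at IM3h (log2 fold change 4.53 ± 0.61, adjusted p = 0.000655). All 4 libraries lay above the naïve ones, although they differed from each other by more than the naïve libraries did. At IM24h the values were 2.39, 0, 3.54 and 0.573 CPM, on both sides of the naïve range, and the fall from IM3h was 4.33 on the log2 scale (adjusted p = 0.0429), lost when any of 6 of the 8 libraries was left out (highest adjusted p = 0.191). At IM72h it was not tested, with 39.4 CPM in library 3, from 41 counts, and 0 to 0.616 CPM in the others.

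*Cd44*, on chromosome 2 from 102811141 to 102901665, rose at IM3h and was still raised at IM72h in total *ME* RNA. The naïve *ME* libraries had 68.2, 47.8 and 72.6 CPM. The libraries of IM3h had 417, 436 and 446 CPM, those of IM24h 277, 306, 382 and 269 CPM, and those of IM72h 163, 144, 130 and 151 CPM. No library after IM overlapped a naïve one. The log2 fold change was 2.83 ± 0.15 at IM3h (adjusted p = 9.43e-07), 2.28 ± 0.21 at IM24h (adjusted p = 0.000103) and 1.19 ± 0.15 at IM72h (adjusted p = 7.88e-05). The levels of IM3h and IM24h were neighbours that did not pass the test (difference -0.45 ± 0.16, adjusted p = 0.0583). The step passed with DESeq2 (adjusted p = 0.0152), RLE scaling (0.0483), the rRNA entries left out (0.0473) and all groups in 1 fit (0.0221). The other alternatives that left out no single library did not call it. It was -0.51 with the reference genes (adjusted p = 0.23). With library totals it was 0.36 (adjusted p = 0.103), where the median of all genes lay at 0.84. IM72h lay below IM24h by -1.10 ± 0.15 (adjusted p = 0.000294). In *RiboTag* RNA *Cd44* went from 25.9, 51.4 and 25.9 CPM to 410, 433, 298 and 249 CPM at IM3h (log2 fold change 3.39 ± 0.35, adjusted p = 0.000119). It fell from IM3h to IM24h by 1.99 on the log2 scale (adjusted p = 0.0215), to 80.2, 84.6, 42.5 and 126 CPM, a call lost when any of 4 of the 8 libraries was left out (highest adjusted p = 0.0887). With libraries 1 and 4 of IM24h alone that step was -1.74 (adjusted p = 0.0522). The IM24h libraries overlapped the naïve ones only through library 3, and the change against naïve mice was 1.31 ± 0.48 (unadjusted p = 0.018, adjusted p = 0.231). At IM72h *Cd44* spanned 1.92 to 78.5 CPM (log2 fold change 0.28 ± 1.12, adjusted p = 0.953).

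The syndecan genes differed from each other. *Sdc4*, on chromosome 2 from 164424247 to 164443887, encodes the syndecan found in focal adhesions. Its *RiboTag* level was 158, 52.9 and 69.0 CPM in naïve libraries and 1157, 1118, 1379.7 and 1647 CPM at IM3h (log2 fold change 3.88 ± 0.41, adjusted p = 0.000147). At IM24h it was 255, 319, 239 and 264 CPM, all above the naïve libraries (log2 fold change 1.55 ± 0.42, unadjusted p = 0.00289, adjusted p = 0.119). The fall from IM3h to IM24h was 2.24 on the log2 scale (adjusted p = 0.0047). At IM72h the libraries spanned 70.0 to 271 CPM and overlapped the naïve ones (adjusted p = 0.72). *Sdc4* in total *ME* RNA had 103, 159 and 115 CPM in naïve libraries, 632, 952 and 613 CPM at IM3h, 237, 276, 275 and 163 CPM at IM24h, and 78.3, 61.0, 94.2 and 55.3 CPM at IM72h. The change at IM3h was 2.59 ± 0.21 (adjusted p = 1.41e-05), and at IM24h the change against naïve mice was 0.92 ± 0.22 (adjusted p = 0.0115), a call lost when either of 2 libraries was left out. At IM72h all libraries lay below the naïve ones (log2 fold change -0.83 ± 0.20, adjusted p = 0.00429). With library totals alone, where the median of all genes lay at 0.62, the change was -0.20 (adjusted p = 0.379). Relative to the median of all genes it was -0.85 with TMM and -0.82 with library totals.

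*Sdc1*, on chromosome 12 from 8771323 to 8793715, is the syndecan of epithelia and plasma cells. It had, in total *ME* RNA, 6.04, 4.95 and 4.12 CPM in naïve libraries, 11.7, 11.8 and 7.81 CPM at IM3h, 15.4, 16.3, 27.2 and 15.8 CPM at IM24h, and 23.5, 13.3, 13.1 and 18.1 CPM at IM72h. No library after IM overlapped the naïve range. The log2 fold change was 1.10 ± 0.28 at IM3h (adjusted p = 0.0123), 1.89 ± 0.30 at IM24h (adjusted p = 0.00142) and 1.72 ± 0.26 at IM72h (adjusted p = 0.000216). The call at IM3h was lost without naïve library 3 or IM3h library 2 (highest adjusted p = 0.0672), with library totals alone (adjusted p = 0.0507) and with the reference genes (adjusted p = 0.0742), scalings that moved the median of all genes to -0.26 and -0.41. Relative to those medians it was 1.11 and 1.10. The step from IM3h to IM24h was 0.88 ± 0.29 (adjusted p = 0.0434), which was lost when any of 6 of the 7 libraries was left out, and that from IM24h to IM72h was -0.17 ± 0.25 (adjusted p = 0.632). In *RiboTag* RNA *Sdc1* had 0.677 to 6.04 CPM in naïve libraries and 1.63 to 5.35 CPM at IM3h (log2 fold change 0.08 ± 0.93, with a 95% confidence interval of -1.94 to 2.10). Its counts at IM3h were 14 to 56 per library, and a change within that interval was not detectable at this depth.

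*Tnc*, on chromosome 4 from 63959785 to 64047015, was raised at every time point in total *ME* RNA, most of all at IM24h. The naïve libraries had 107, 145 and 124 CPM, those of IM3h 369, 438 and 364 CPM, those of IM24h 896, 865, 935 and 468 CPM, and those of IM72h 360, 350, 323 and 369 CPM. Library 4 of IM24h stood below the other 3 of its group but above every library of the other groups. The log2 fold change against naïve mice was 1.69 ± 0.14 (adjusted p = 1.51e-05), 2.66 ± 0.26 (adjusted p = 0.000146) and 1.46 ± 0.13 (adjusted p = 7.04e-06) at the 3 time points in turn. The rise from IM3h to IM24h was 1.06 ± 0.23 (adjusted p = 0.00835) and the fall from IM24h to IM72h was 1.21 on the log2 scale (adjusted p = 0.00109). In *RiboTag* RNA *Tnc* had 48.1, 31.6 and 43.3 CPM in naïve libraries, 280, 450, 256 and 160 CPM at IM3h and 284, 204, 59.4 and 260 CPM at IM24h, with every library of both time points above the naïve ones. The log2 fold change was 2.86 ± 0.36 at IM3h (adjusted p = 0.000442) and 2.34 ± 0.52 at IM24h (unadjusted p = 0.000634, adjusted p = 0.066). With libraries 1 and 4 of IM24h alone it was 2.76 (adjusted p = 0.0251). From IM3h to IM24h *RiboTag* *Tnc* changed by -0.43 ± 0.46 (adjusted p = 0.727), and at IM72h it spanned 26.0 to 226 CPM.

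**Figure D2:**
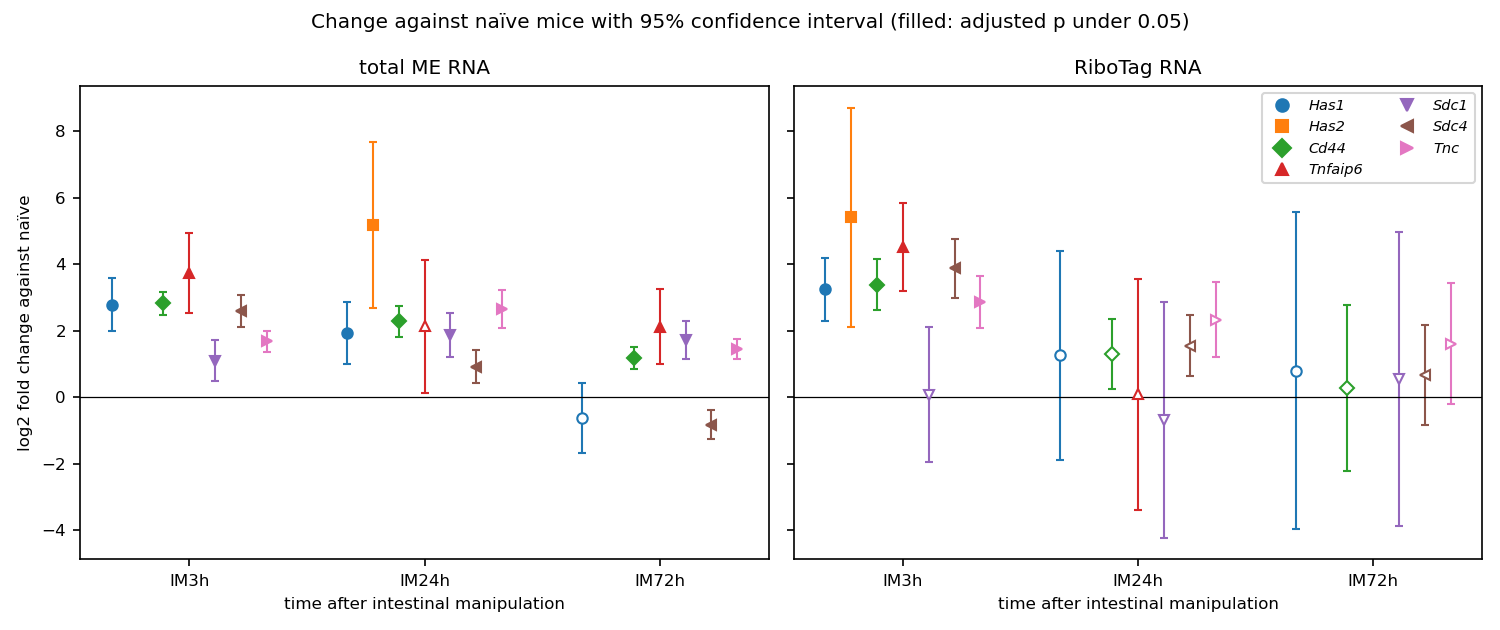
Log2 fold change of each gene against naïve mice (vertical axis) at IM3h, IM24h and IM72h (horizontal axis), for total *ME* RNA on the left and *RiboTag* RNA on the right. Bars are 95% confidence intervals of the edgeR fit and filled symbols mark an adjusted p under 0.05. The 6 filled symbols at IM3h lie above 0 in each panel, and no *RiboTag* symbol is filled at IM24h or IM72h.

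Over all comparisons with naïve mice, calls at the later time points came from total *ME* RNA. At IM24h 6 of 7 members were higher there, against 15.6% of 16328 genes (13.4% were lower), with *Tnfaip6* as the exception. Scaled by the reference genes, 3 stayed called there (*Cd44*, *Sdc1* and *Tnc*), *Has1* (adjusted p = 0.0571) and *Sdc4* (adjusted p = 0.169) did not, and *Has2* was not tested. That scaling moved the median of all genes to -0.37, with 4.79% of genes higher and 12.2% lower, and relative to that median *Has1* was at 1.93 and *Sdc4* at 0.86, beside 1.90 and 0.90 with TMM. At IM72h 4 of 6 were higher and *Sdc4* was lower, against 29.3% of 16592 genes higher and 28.3% lower. With the reference genes all 7 were tested and called, *Has1* and *Sdc4* as lower, against 11.3% of genes higher and 48.3% lower. The median of all genes then lay at -0.62, and relative to it *Has1* was at -0.61 and *Sdc4* at -0.82. In *RiboTag* RNA 0 of 6 members were called at IM24h and 0 of 5 at IM72h by edgeR, against 0.366% of 15304 genes higher and 0.131% lower at IM24h, and 1.05% of 13572 genes higher and 15.1% lower at IM72h. At an unadjusted p under 0.05, 3 members were higher at IM24h (*Tnc*, *Sdc4* and *Cd44*) and 0 differed at IM72h, while the threshold of the study, an unadjusted p under 0.05 with over 2-fold change, took in 3 at IM24h, against 12.5% of genes. DESeq2 called 2 at IM24h (*Tnc* and *Sdc4*, both higher), against 3.21% of genes higher and 2.42% lower, and 0 at IM72h, against 3.19% and 13.6%. Between time points, total *ME* RNA gave 2 members higher and 2 lower from IM3h to IM24h, against 14.2% and 13.4% of genes, and 4 lower from IM24h to IM72h, against 19.9% of genes lower and 18.6% higher. *RiboTag* RNA gave 3 lower from IM3h to IM24h, against 0.903% of genes lower and 0.939% higher, and 0 of the 4 members tested from IM24h to IM72h, where edgeR called 0 of 9335 genes, 0 members had an unadjusted p under 0.05 and DESeq2 called 0 members.

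The fractions were also compared directly. In naïve mice *Tnc* was lower in *RiboTag* than in total *ME* RNA (log2 difference -1.25 ± 0.21, adjusted p = 0.00316), and was the only one of 6 members called, against 26.1% of 14741 genes called in either direction. By the threshold of the study 2 members passed, against 25.8% of genes. With library totals alone, where the median of all genes lay at 0.73, that difference was -0.52 (adjusted p = 0.0665), or -1.24 relative to that median. *Has1* was then the 1 member called, with a log2 difference of 2.19 (adjusted p = 0.0207), or 1.47 relative to the median, against 35.1% of genes higher and 3.09% lower. With TMM *Has1* had a log2 difference of 1.43 ± 0.62 (adjusted p = 0.123), *Cd44* of -0.52 ± 0.30 and *Sdc4* of -0.07 ± 0.38. The change at IM3h was compared between fractions by an interaction term, and 0 of 7 members were called, against 1.65% of 17606 genes. The 2 members with an unadjusted p under 0.05 were *Sdc4*, whose rise was 1.38 ± 0.46 log2 units greater in *RiboTag* RNA (unadjusted p = 0.00872, adjusted p = 0.155), and *Tnc*, with 1.25 ± 0.39 (unadjusted p = 0.00592, adjusted p = 0.13). For *Cd44* the difference was 0.65 with a 95% confidence interval of -0.15 to 1.46, and for *Sdc1* -0.94 with an interval of -2.89 to 1.01, so that these data do not show equal rises in the fractions. The interaction called 0 of 7 members at IM24h and 0 of 6 at IM72h, against 0.538% and 23.2% of genes, with 0 at an unadjusted p under 0.05 and 0 called by DESeq2 at either time. DESeq2 also called 0 at IM3h, and the threshold of the study took in 2, against 11.1% of genes. In these tests the fractions also differed in mouse line at naïve and IM3h.

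Around the members, 8 lists of pathway genes were followed, and each count is to be read against the share of all genes called. For total *ME* RNA the share called higher was 19.3% in the IM3h comparison, 15.6% in that of IM24h and 29.3% in that of IM72h, and the share called lower was 13.4%, 13.4% and 28.3% in turn. For *RiboTag* RNA of IM3h the shares were 8.86% and 4.44%. Among genes for hyaluronan synthesis and its sugar precursors, 4 of 7 tested were higher and 0 lower at IM3h in total *ME* RNA, against 19.3% and 13.4% of all genes, with a list median of 0.91 on the log2 scale. *Ugdh*, which makes UDP-glucuronic acid, rose by 1.65 ± 0.19 (adjusted p = 0.000124), and *Uap1*, which makes UDP-N-acetylglucosamine, by 1.84 ± 0.18 (adjusted p = 4.5e-05). *Gfpt2*, an entry enzyme of the hexosamine pathway, rose by 2.02 ± 0.37 (adjusted p = 0.00231). In *RiboTag* RNA at IM3h *Ugdh* and *Uap1* were the 2 of 7 that passed, with 1.55 ± 0.29 (adjusted p = 0.00479) and 2.25 ± 0.39 (adjusted p = 0.00316). At IM24h and IM72h in total *ME* RNA 5 and 3 of 7 were higher, against 15.6% and 29.3% of all genes, and *Ugp2*, which makes UDP-glucose, was lower at both times (-1.02 ± 0.16 and -1.05 ± 0.12).

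Among genes of hyaluronan breakdown, *Cemip2* was the one that rose at IM3h in both fractions, with a mean of 25.8 ± 3.16 CPM (SD, n = 3) in naïve libraries and 119 ± 18.4 CPM (SD, n = 3) after IM in total *ME* RNA, and of 21.9 ± 3.95 CPM (SD, n = 3) and then 173 ± 37.3 CPM (SD, n = 4) in *RiboTag* RNA. *Cemip*, which encodes a hyaluronan-depolymerising protein, was lower in total *ME* RNA at IM3h (-1.37 ± 0.41, adjusted p = 0.0274), and the other 5 of 7 tested did not pass. At IM72h 3 of 7 were higher, among them the lysosomal exoglycosidase genes *Hexa* (1.52 ± 0.16) and *Gusb* (1.43 ± 0.15), and *Hyal1*, a lysosomal hyaluronidase gene, was lower (-2.09 ± 0.24, adjusted p = 3.75e-05).

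Of the other hyaluronan receptors, *Layn*, which encodes layilin, rose at IM3h in both fractions, by 2.21 ± 0.32 in total *ME* RNA (adjusted p = 0.000543) and in *RiboTag* RNA from a naïve mean of 0.151 ± 0.261 CPM (SD, n = 3) up to 25.0 ± 3.11 CPM (SD, n = 4) (adjusted p = 0.000198). It was the only 1 of 5 tested in *RiboTag* RNA that passed. In total *ME* RNA at IM72h 3 of 5 were higher, with *Hmmr*, a hyaluronan-binding protein of dividing cells, at 4.06 ± 0.21 (adjusted p = 3.59e-07) and *Stab1*, a scavenger receptor of macrophages and sinusoidal endothelium, at 2.60 ± 0.18 (adjusted p = 1.34e-06). *Stab2* was lower at all 3 time points.

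Among the hyaluronan-binding matrix genes, *Ptx3*, whose pentraxin product joins TSG-6 and heavy chains in hyaluronan matrix, and *Vcan*, which encodes the hyaluronan-binding proteoglycan versican, were the 2 of 6 that rose at IM3h in each fraction. *Ptx3* had a naïve mean of 0.386 ± 0.245 CPM (SD, n = 3) and one at IM3h of 43.4 ± 16.1 CPM (SD, n = 3) in total *ME* RNA, and went from 0 counts in every naïve *RiboTag* library to 12.8 ± 4.49 CPM (SD, n = 4), at least 35.7-fold higher than a floor of 3 counts per naïve library. *Vcan* rose by 1.17 ± 0.24 (adjusted p = 0.0042) in total *ME* RNA and by 1.43 ± 0.40 (adjusted p = 0.0322) in *RiboTag* RNA at IM3h, and by 2.81 ± 0.30 (adjusted p = 0.000214) in total *ME* RNA at IM24h. *Itih5*, a gene of the inter-alpha-inhibitor heavy chain family, was lower in total *ME* RNA at each time point, with -1.85 ± 0.27 at IM24h (adjusted p = 0.000961).

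CD44 partners were called higher in 4 of 7 tested genes at IM3h in total *ME* RNA and in 2 of 7 in *RiboTag* RNA. *Ezr*, which encodes ezrin, rose by 2.38 ± 0.30 (adjusted p = 0.00043) in *RiboTag* RNA and by 0.95 ± 0.26 (adjusted p = 0.0175) in total *ME* RNA. *Msn*, which encodes moesin, was higher in *RiboTag* RNA at IM3h (1.37 ± 0.40, adjusted p = 0.0434), IM24h (2.84 ± 0.55, adjusted p = 0.0424) and IM72h (2.84 ± 0.48, adjusted p = 0.00846), and was the only gene of the 8 lists called higher than in naïve mice in *RiboTag* RNA at IM24h or IM72h. *Srgn*, which encodes the CD44-binding proteoglycan serglycin of blood cells, and *Spp1*, which encodes the CD44 ligand osteopontin, rose in total *ME* RNA at IM24h by 4.11 ± 0.48 and 6.62 ± 0.54.

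In the lists around the syndecans and tenascin C, genes were called in both directions in total *ME* RNA. Of the other syndecans and glypicans there, IM3h had 1 of 9 higher and 1 lower, IM24h had 2 of 9 higher and 3 lower, and IM72h had 3 of 8 higher and 4 lower. The shares of all genes were 19.3%, 15.6% and 29.3% higher and 13.4%, 13.4% and 28.3% lower in turn. Beside these, counts of so few genes are no result about the list. *Sdcbp*, which encodes the syndecan adaptor syntenin, rose at IM3h by 0.79 ± 0.10 in total *ME* RNA and by 1.46 ± 0.28 in *RiboTag* RNA, whereas *Sdc2* was lower in total *ME* RNA (-0.59 ± 0.12, adjusted p = 0.00415). For heparan sulfate synthesis and editing, 4 of 19 genes were higher and 3 lower at IM3h in total *ME* RNA, and 3 of 19 higher in *RiboTag* RNA. These counts for total *ME* RNA are close to the share of all genes, 19.3% higher and 13.4% lower, and are no result about the list. *Ndst1*, which sulfates the growing chain, rose by 1.56 ± 0.12 (adjusted p = 1.06e-05) and 1.06 ± 0.24 (adjusted p = 0.0118), and *Xylt1*, which starts the chain, by 1.33 ± 0.26 and 1.91 ± 0.40. Among other tenascins and tenascin receptors 3 of 11 were higher and 2 lower at IM3h in total *ME* RNA. Beside shares of 19.3% and 13.4% of all genes, these counts are no result about that list either. *Tlr4* rose by 1.66 ± 0.43 (adjusted p = 0.015) and *Itgb3* was lower (-1.63 ± 0.19, adjusted p = 0.000114). Over all 8 lists in *RiboTag* RNA at IM72h, 1 of 55 genes tested was higher and 8 were lower, against 1.05% and 15.1% of all genes, and 7 of the 8 had 0 or 1 counts in every library of that time.

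**Figure D3:**
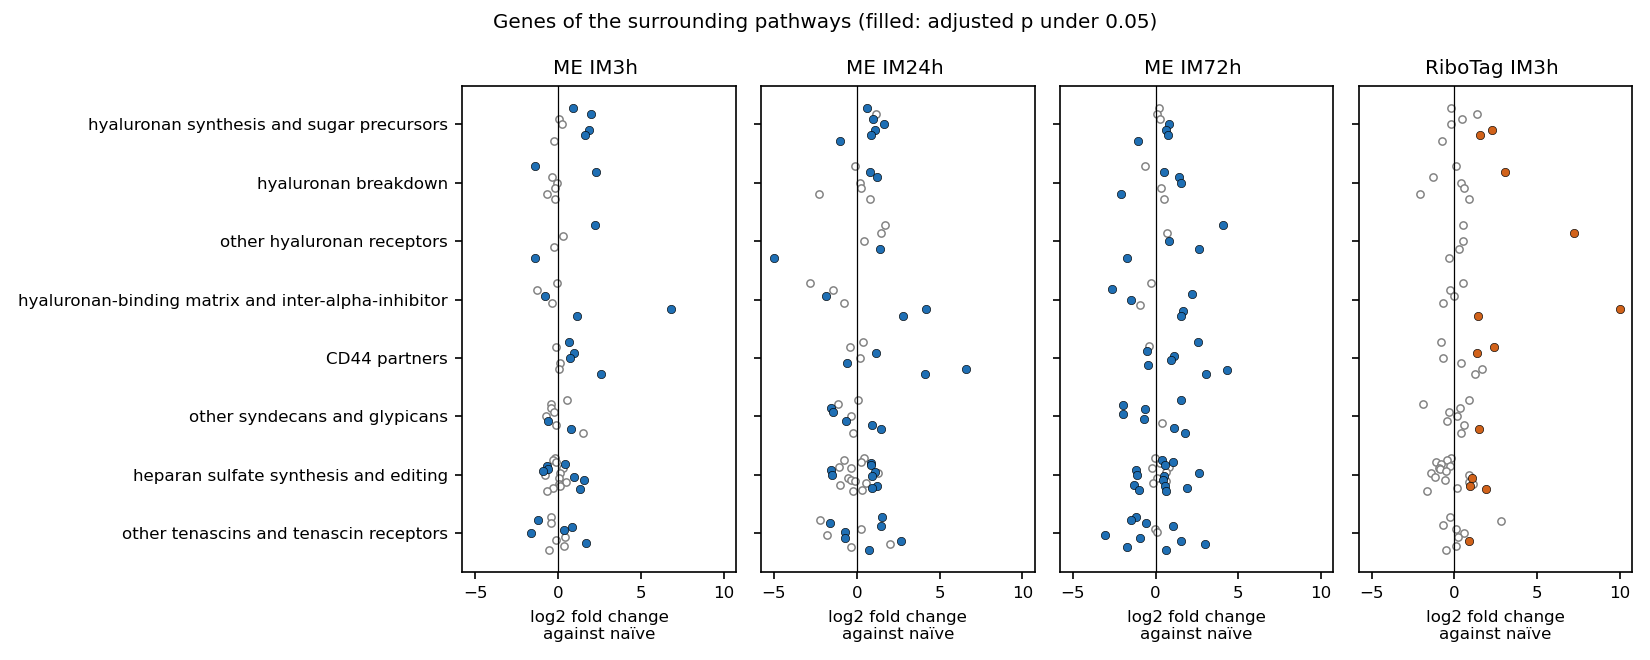
Log2 fold change against naïve mice (horizontal axis) of every tested gene in 8 pathway lists (vertical axis) for total *ME* RNA at IM3h, IM24h and IM72h and for *RiboTag* RNA at IM3h. Each point is 1 gene and filled points have an adjusted p under 0.05. Filled points lie on both sides of 0 in total *ME* RNA, and in *RiboTag* RNA all are above 0, with *Ptx3* and *Layn* farthest to the right.

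Markers of other cell types moved with some members. In bulk RNA, fewer cells of a type and less RNA per cell cannot be told apart. The 8 markers of monocytes and neutrophils summed to 10.5 to 12.2 CPM in naïve *ME* libraries, 36.4 to 48.3 CPM in those of IM3h, 181 to 352 CPM in those of IM24h and 92.9 to 131 CPM in those of IM72h, with *Mpo* at 0 in every group. The 8 macrophage markers summed to 186 to 193 CPM in naïve *ME* libraries, 145 to 167 CPM in those of IM3h, 389 to 558 CPM in those of IM24h and 1155 to 1452 CPM in those of IM72h. *Cd44*, *Sdc1* and *Tnc* were also high at the later times in this fraction, and the part of these cells in their levels was not tested. In *RiboTag* RNA the monocyte and neutrophil markers summed to 7.68 to 11.4 CPM in naïve libraries, 7.36 to 17.2 CPM in those of IM3h, 55.6 to 108 CPM in those of IM24h and 16.0 to 150 CPM in those of IM72h. Within that sum *Ccr2* had a mean of 7.03 CPM in naïve libraries and 5.25 CPM at IM3h, whereas *S100a9* had 0.310 and 3.67 CPM, *S100a8* 0 and 0.764 CPM, and *Retnlg* 0 and 0.436 CPM. The macrophage markers in *RiboTag* RNA summed to 87.2 to 173 CPM in naïve libraries, 66.6 to 131 CPM in those of IM3h, 156 to 275 CPM in those of IM24h and 219 to 474 CPM in those of IM72h, with *Cd68* at 0 in naïve libraries. The part of these cells in the *RiboTag* levels of the members was not tested.

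The 8 mesothelial markers went the other way from *Has1* at IM3h. They summed to 117 to 166 CPM in naïve *ME* libraries and 4.72 to 22.3 CPM at IM3h, and to 97.2 to 278 and 10.9 to 82.4 CPM in *RiboTag* RNA. Fibroblast markers summed to 2884 to 3034 CPM in naïve *ME* libraries, 1416 to 1647 at IM3h and 4472 to 5315 at IM72h, and smooth muscle markers were lowest at IM24h, with 3493 to 11507 CPM against 23678 to 25483 CPM in naïve libraries. In *RiboTag* RNA fibroblast markers summed to 1035 to 1312 CPM in naïve libraries, 397 to 586 CPM in those of IM3h, 495 to 1479 CPM in those of IM24h and 671 to 1895 CPM in those of IM72h. Smooth muscle markers summed there to 5518 to 8430, 2125 to 5518, 1793 to 4515 and 3187 to 10161 CPM in turn. Both sums were thus lower at IM3h, when 6 members rose. The 4 markers of interstitial cells of Cajal went from 366 to 372 CPM in naïve *ME* libraries to 256 to 268 CPM at IM3h, and from 162 to 226 to 63.4 to 149 CPM in *RiboTag* RNA. The 8 neuron markers went from 531 to 547 to 438 to 491 CPM in total *ME* RNA. In *RiboTag* RNA they overlapped, with 578 to 1241 and 779 to 1641 CPM. The part of these cells in that rise was not tested. The 7 endothelial markers had higher sums at each later time in total *ME* RNA, with 36.6 to 38.8 CPM in naïve libraries, 46.5 to 54.6 CPM in those of IM3h, 59.7 to 82.4 CPM in those of IM24h and 87.4 to 103 CPM in those of IM72h. The glial markers in total *ME* RNA were also highest at IM72h, with 162 to 313 CPM against 125 to 150 CPM in naïve libraries. The part of these cells in the levels of the members was not tested. Epithelium and plasma cells can express *Sdc1*. The 8 epithelial markers summed to 477, 429.6 and 170 CPM in the naïve *ME* libraries and to 1425, 493 and 233 CPM in those of IM3h. In the same order *Sdc1* had 6.04, 4.95 and 4.12 CPM in the naïve libraries and 11.7, 11.8 and 7.81 CPM in those of IM3h. The epithelial markers summed to 78.8 to 205 CPM in the libraries of IM24h and 306 to 676 CPM in those of IM72h. The 5 markers of B and plasma cells summed to 13.3 to 40.3 CPM in naïve *ME* libraries, 9.97 to 26.6 CPM in those of IM3h, 6.70 to 20.3 CPM in those of IM24h and 15.3 to 38.4 CPM in those of IM72h. Their part in the level of *Sdc1* was not tested.

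**Figure D4:**
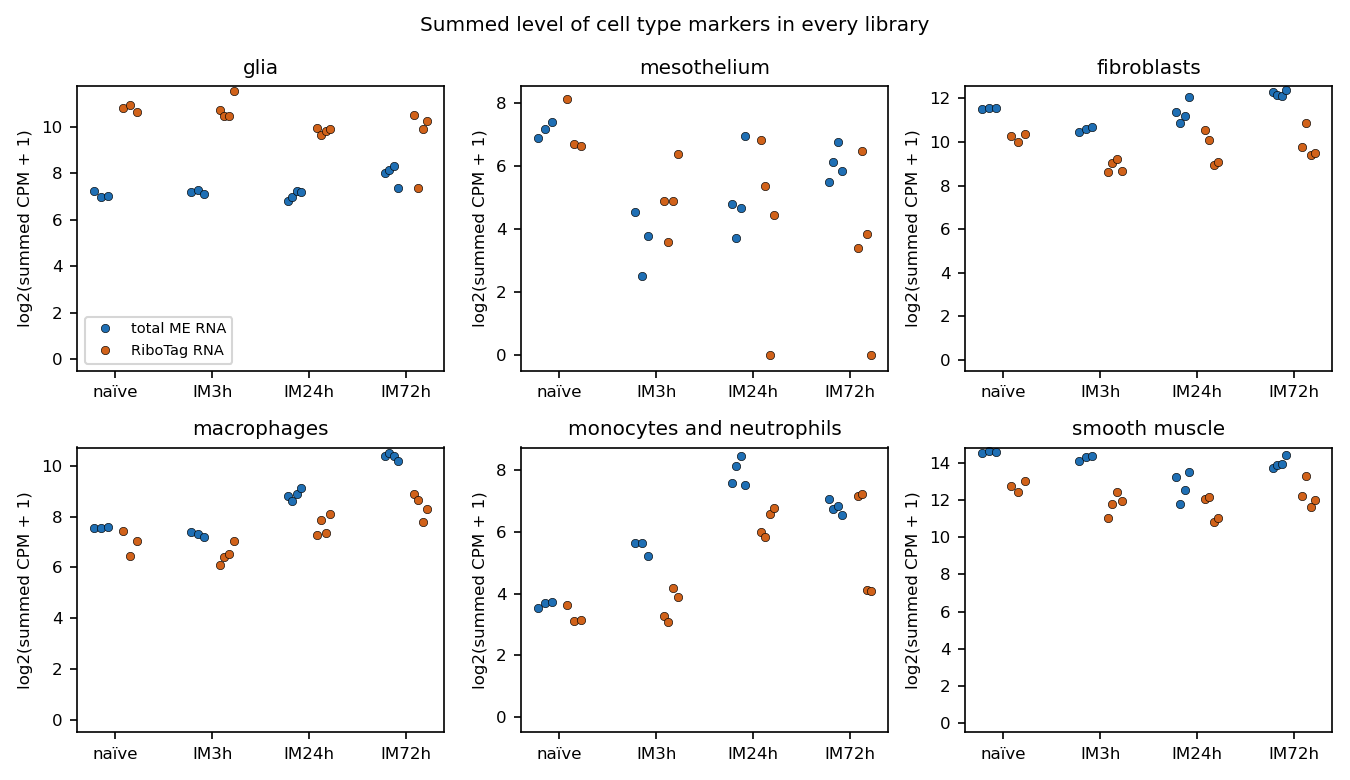
Summed level of marker genes of 6 cell types in every library, as log2(summed CPM + 1) on the vertical axis and time point on the horizontal axis, with total *ME* RNA in blue and *RiboTag* RNA in orange. Each point is 1 library. Glial markers are higher in naïve *RiboTag* than in naïve *ME* libraries, and monocyte and neutrophil markers are highest in total *ME* RNA at IM24h.

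The transcript tables show which annotated forms took up the counts. *Cd44-207* held 94.1% of *Cd44* counts in naïve *ME* RNA, 90.5% in that of IM3h, 94.6% in that of IM24h and 98.95% in that of IM72h. It held 95.1% in naïve *RiboTag* RNA, 97.3% in that of IM3h, 69.8% in that of IM24h and 82.7% in that of IM72h, and in library 2 of IM24h another annotated form took 206 of 207 counts. The split of *Sdc1* varied between libraries of 1 group. At IM3h in total *ME* RNA, *Sdc1-205* had 12.7, 68.8 and 47.0 counts where the other form had 70.3, 11.2 and 0 counts. For *Tnc*, the ratio of counts between *Tnc-201* and *Tnc-203* had a median of 6.82 over the 29 libraries, with a lowest value of 4.23 and a highest value of 6.82. The reads come from 3′ ends and were assigned to forms by the estimation of the authors, so these shares are estimates.

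The genes whose log2 CPM followed each member most closely are given as a description. Over 14 *ME* libraries the highest Pearson correlation was 0.98 for *Cd44* with *Rrp9*, 0.98 for *Sdc4* with *Cebpg*, 0.99 for *Tnc* with *Nhp2*, 0.96 for *Has1* with *Nrip1*, 0.93 for *Has2* with *Msr1*, 0.91 for *Tnfaip6* with *Tspan4* and 0.94 for *Sdc1* with *Lcn2*. Over 15 *RiboTag* libraries it was 0.95 for *Cd44* with *Srsf2*, 0.92 for *Sdc4* with *Nifk*, 0.92 for *Tnc* with *Gm8822*, 0.96 for *Has1* with *Zfp655*, 0.97 for *Has2* with *Gm43863*, 0.91 for *Tnfaip6* with *Lsmem1* and 0.95 for *Sdc1* with *Baiap2l1*. Genes not listed at a *RiboTag* time point, such as *Has2* at IM72h, were entered there as having no counts. The libraries of each fraction share their time points, and rRNA content moved with time in both, so these are descriptions only. The nearest gene differed between the fractions for each of the 7.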

How the data were processed

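*ME* and *RiboTag* RNA were sequenced as 3′ end libraries. Per the labels the authors used cutadapt, STAR and Partek and the build mm10. The deposited tables hold estimated counts per gene or transcript, made by the authors without scaling, for features with at least 10 counts in total. The authors' tables of comparisons (p-values, fold changes, group means) were not used. Line names match no sample title, so groups were read from the group entry of each line (0 lines without one), and libraries are numbered by name order. Of 4 labelled naïve *RiboTag* samples, 3 libraries are in the tables, which have 0 columns of other series.

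Transcript counts were summed by symbol, rounded and tested in edgeR 4.0.16 (R 4.3.3, limma 3.58.1) by the two-sided quasi-likelihood test, with TMM, filterByExpr, the groups compared only and Benjamini-Hochberg adjustment over all genes. CPM are scaled by TMM within a fraction. A group with 3 counts or fewer in every library was taken as at the floor, which covers counting error only. Where the libraries of a group are said not to overlap the naïve ones, the share of all genes that separate so was not counted. Pathway genes named are up to 3 per list and comparison with the largest called change. DESeq2 1.42.0 and other alternatives are in the closing section. The members and gene lists were chosen with earlier results of these data known.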

Additional observations from a re-analysis of the deposited data

Results flagged for a closer look

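Of 34 groups of 4 libraries, 5 held a library whose gap to its nearest neighbour was above Dixon's 95% critical value, which chance gives in about 1 in 20 groups. In total *ME* RNA at IM24h these were *Sdc1*, with 27.2 CPM in library 3 against 15.4 to 16.3 CPM in the others, and *Tnc*, with 468 CPM in library 4 against 865 to 935 CPM. In *RiboTag* RNA at IM72h they were *Has1*, with 32.1 CPM in library 2 and 0 in the others, *Tnfaip6*, with 39.4 CPM in library 3 against 0 to 0.616 CPM, and *Sdc1*, with 18.3 CPM in library 3 and 0 in the others.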

How the results depend on the processing

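Scaling by *Actb*, *Hsp90ab1* and *Rplp1* left 3 members called at IM24h against naïve mice and 2 from IM3h to IM24h in total *ME* RNA, and 1 from IM3h to IM24h in *RiboTag* RNA, where library totals alone and all groups in 1 fit each also gave 1. All groups in 1 fit called 1 member at *RiboTag* IM3h. The fit without the rRNA entries changed calls of members only from IM3h to IM24h in total *ME* RNA. There *Cd44* gained its call (adjusted p = 0.0473) and *Sdc1* lost it (adjusted p = 0.0506). At *RiboTag* IM24h against naïve mice no filter gave 1, DESeq2 2, the study's threshold (unadjusted p under 0.05 and over 2-fold) 3, and libraries 1 and 4 only, chosen after seeing the data, 1. That threshold gave 2 between the naïve fractions and 2 for the interaction at IM3h. With 1 library left out, counts ran from 5 to 6 at IM3h and 5 to 7 at IM24h against naïve mice in total *ME* RNA, 0 to 1 at *RiboTag* IM24h and at IM72h against naïve mice, 2 to 4 and 1 to 3 from IM3h to IM24h in total *ME* and *RiboTag* RNA, 1 to 2 between naïve fractions, 0 to 1 for the interaction at IM3h and 0 to 2 at IM72h. *Has1* ran from -7.48 to 1.24 at *RiboTag* IM72h and from -7.76 to 1.87 in the interaction at IM72h, the lowest without library 2 of that time, and *Tnfaip6* from -4.58 to 0.52 in that interaction, the lowest without library 3. These rest on libraries at 0. The scalings moved the median of all genes as well. With the reference genes it lay at -0.37 at IM24h against naïve mice in total *ME* RNA, and from IM3h to IM24h at -0.03 in total *ME* RNA (5.27% of genes higher, 6.77% lower) and -1.18 in *RiboTag* RNA (0.0642% and 0.228%). With library totals the last was -0.83 (0.113% and 0.445%), beside -0.10 with TMM, and relative to these medians *Cd44* fell by 2.02, 1.91 and 1.89 on the log2 scale with reference genes, library totals and TMM. The cause of the other changes was not tested. Of the 765 fold changes of members under alternatives that left out no single library, 676 kept direction and call, 30 lost the call, 24 gained it, and 35 that passed in neither fit changed sign, most often with library totals or reference genes. With 1 library left out the numbers of 753 were 684, 30, 9 and 27, besides the 3 reversals above. *RiboTag* depth and rRNA content limit IM24h and IM72h. No paired analysis was possible because the lines of the tables carry no replicate number of the labels.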
